A study of Mus musculus with 14 samples.

Results

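Chemokines and their receptors were followed in fibroblasts under cardiac reprogramming. A feature of the array was taken where its only gene symbol was Ccl, Cxcl, Ccr or Cxcr followed by a number and at most 1 letter. This gave 52 of 22206 features, with 51 gene symbols, 37 features for ligands and 15 for receptors. Ccl21b had 2 features, and the values of 1 of them equalled those of Ccl21c within 1e-06 in every array, so these features hold 1 measurement under 2 names. All 52 features had a value in all 14 arrays, and none was filtered out.

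Mouse embryonic fibroblasts (MEFs) of a strain not given in the labels were transduced with retroviruses for Gata4, Hand2, Mef2c and Tbx5 (GHMT), and RNA was taken 2 weeks later for Clariom S Mouse arrays, 2 arrays from independent biological samples in each of 7 groups. All groups carried GHMT, and no fibroblasts without GHMT were analysed here. GHMT/126 kPa and GHMT/8 kPa were grown on hydrogels of 126 kPa, close in stiffness to collagenous bone, or 8 kPa, close to myocardium. GHMT/Scramble, GHMT/shYAP and GHMT/shTAZ were grown on 126 kPa and also received a lentivirus with a control shRNA or an shRNA against YAP or TAZ, the transcriptional co-activators encoded by Yap1 and Wwtr1. GHMT/YAP-5SA and GHMT/TAZ-4SA were grown on 8 kPa and also received a retrovirus with a constitutively active mutant of YAP or TAZ. The deposited values are log2 ratios in 3 sets of arrays. The reference is the mean of the GHMT/126 kPa arrays in the stiffness set and the mean of the scramble arrays in the shRNA set, so the values of those reference arrays mirror each other around 0. The reference of the mutant set is not stated. A ratio holds no signal level, so levels of different genes were not compared, and the labelled cell type could not be checked by the presence of its markers. RNA of whole cultures was measured, and fewer cells of a type cannot be told apart from less RNA per cell.

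As a check of the labels, Yap1 was -0.89 and -0.88 in the shYAP arrays and -0.11 and 0.11 in the scramble arrays, a log2 difference of -0.88 (SE 0.12, adjusted p = 0.0498 from limma). Wwtr1 was -0.36 and -0.31 in the shTAZ arrays and -0.25 and 0.25 in the scramble arrays, a log2 difference of -0.34 (SE 0.17, adjusted p = 0.43 from limma). The lowering of the targeted gene thus passed the test for shYAP, close to the threshold, and did not pass it for shTAZ. In the fit to the 4 shYAP and scramble arrays alone, 0 of 22122 features passed as lower, so Yap1 did not pass there. In the mutant set Yap1 was 0.24 and 0.06 with YAP-5SA and -0.05 and -0.26 with TAZ-4SA, a difference of 0.31 (SE 0.16, limma adjusted p = 0.448). Wwtr1 was 0.31 and 0.14 with YAP-5SA and 0.11 and 0.08 with TAZ-4SA, so it was not higher with the TAZ mutant (difference 0.13, SE 0.14, limma adjusted p = 0.753). Whether the probes of these genes read the mutant transcripts is not given in the sources used here, and the labels of the mutant set were therefore not checked by them. Apart from the arrays, the authors reported lower YAP and TAZ with the shRNAs by qRT-PCR and western blotting. By western blotting they also reported more YAP protein with YAP-5SA and more TAZ protein with TAZ-4SA. Across all features the SD of the log2 values was 0.17 to 0.20 in the arrays that form a reference and 0.36 to 0.47 in the other arrays.

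Chemokines are small secreted proteins that guide moving leukocytes and progenitor cells by binding G protein-coupled receptors on them. CC ligands such as Ccl2 draw monocytes and macrophages through receptors such as Ccr2 and Ccr1. CXC ligands fall into neutrophil attractants such as Cxcl1, Cxcl2 and Cxcl5, interferon-induced ligands of Cxcr3 (Cxcl9, Cxcl10 and Cxcl11), and homeostatic ligands such as Cxcl12, which binds Cxcr4, and Cxcl13, which binds Cxcr5. Fibroblasts make many of these ligands, whereas most of the receptors are known from leukocytes, and macrophages make both.

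The scramble arrays, which serve as the control of the shRNA set, differed from each other in part of these genes. In 10 of the 52 features the value of scramble array 1 exceeded that of scramble array 2 by 2-fold or more, which held for 494 of 22123 features in all (2.23%). In 3 it was 2-fold or more below, which held for 0.348% of all features. The 10 were the receptor genes Ccr2, Ccr1, Ccr3 and Cxcr4 and the ligand genes Ccl6, Ccl12, Ccl3, Ccl9, Ccl4 and Cxcl16. Ccr2, the receptor of Ccl2 and Ccl12 on monocytes, had a log2 value of 2.38 in scramble array 1 and -2.38 in scramble array 2. Ccr1, a receptor of Ccl3, Ccl6 and Ccl9, had 1.71 and -1.71. Ccl6 differed by 2.92, Ccl12 by 2.81, Ccl3 by 2.16, Cxcr4 by 1.81 and Ccr3 by 1.63. The member just inside this limit was Ccl4, with a difference of 1.30, and the one just outside was Ccl22, with 0.79. In the other direction, Ccl11 (eotaxin, an attractant of eosinophils) differed by -1.61, Cxcl13 by -1.41 and Cxcl10 by -1.21, while Cxcl12 and Cxcr5, just outside, both differed by -0.52. The other 39 features stayed within 2-fold. These include all 8 lymphoid and epithelial CC ligands, all 5 neutrophil-attracting CXC ligands and Ccl2, Ccl7 and Ccl8.

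Macrophage markers differed in the same direction as these 10 genes. Of 19 macrophage marker features, 17 had a 2-fold or greater excess in scramble array 1 and 19 were higher there, with a median difference of 2.29 and a range of 0.07 (Cd163) to 3.98 (Aif1). Median differences were 0.05 for neutrophil, -0.09 for T and NK cell, 0.08 for B cell, -0.04 for dendritic cell, -0.06 for mast cell and -0.13 for endothelial markers. Among these lists, 1 of 9 neutrophil markers (Csf3r, by 3.14) and 1 of 9 dendritic cell markers (Itgax, by 1.07) were at least 2-fold higher in scramble array 1. Fibroblast markers had a median of -0.32 and cardiomyocyte markers of -0.21. The 17 interferon-responsive genes had a median of -0.36, and 5 of them were at least 2-fold lower in scramble array 1, the direction of Cxcl10, while 1 (Cd274) was at least 2-fold higher there, by 1.29. What part these cell markers have in the chemokine values was not tested. Because these differences lie between replicates of 1 group, they carry no test.

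**Figure D1:**
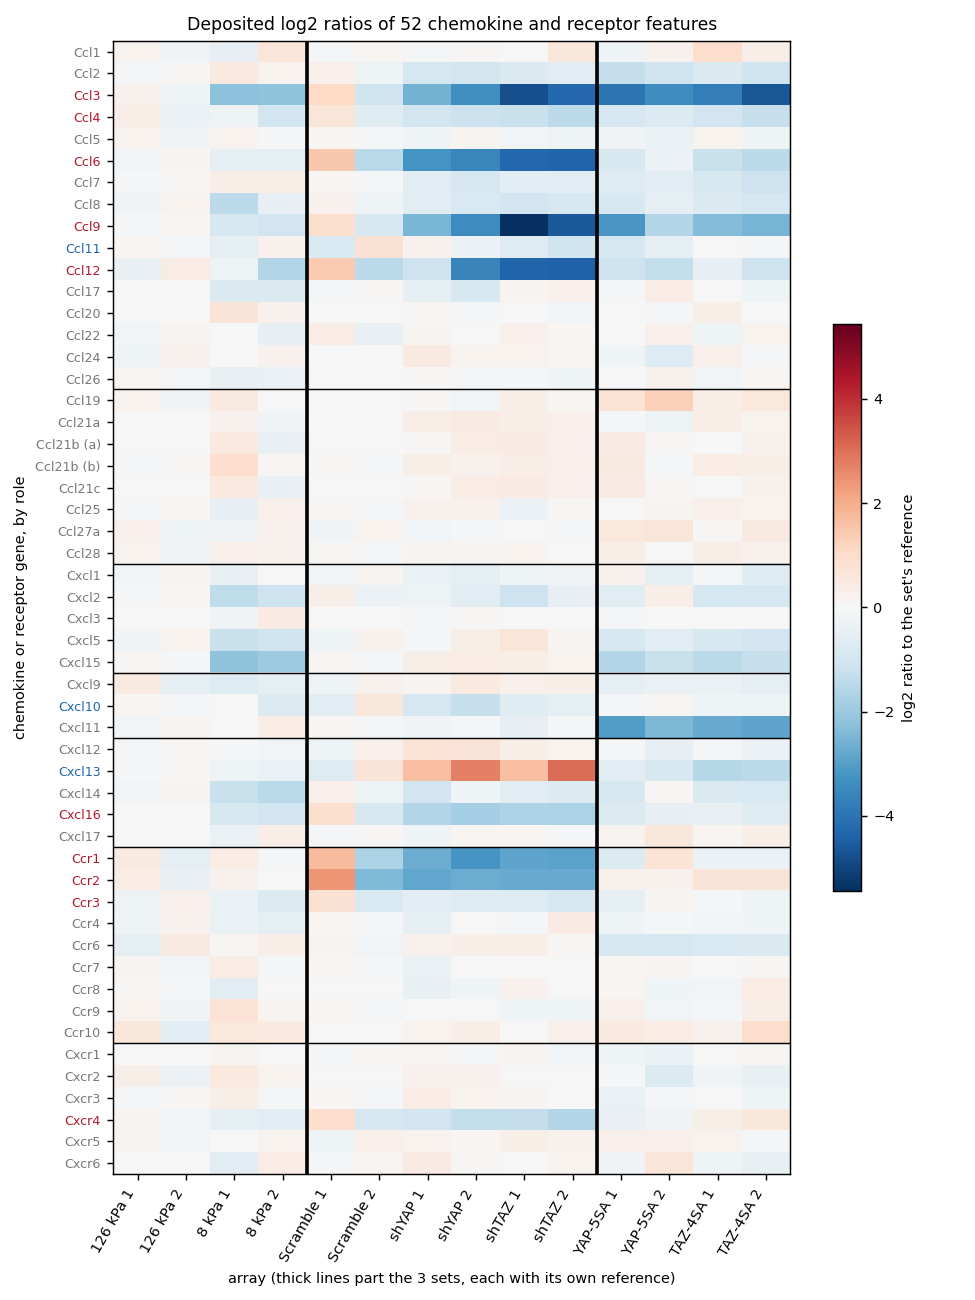
Deposited log2 ratios of the 52 features (rows, by role) in the 14 arrays (columns), with blue below and red above the reference of each set. Red gene names mark the 10 features that were 2-fold or more above in scramble array 1 and blue names the 3 that were 2-fold or more below; (a) and (b) mark the 2 features of Ccl21b, of which (a) repeats Ccl21c. Ccl3, Ccl6, Ccl9 and Ccl12 are, within the shRNA set, lowest in the shTAZ arrays, and most receptors and lymphoid ligands stay pale throughout.

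The comparison of soft with stiff hydrogel uses no scramble array. On 8 kPa, Cxcl15 fell, and it was the only 1 of the 52 features past the test (1 lower and 0 higher, against 0.0721% of all features lower and 0.0 higher). Cxcl15, known in mice as lungkine and as a neutrophil attractant, had log2 values of -2.17 and -1.98 on 8 kPa and of 0.07 and -0.07 on 126 kPa. It fell by 2.08 on the log2 scale (SE 0.15, adjusted p = 0.0433 from limma). In scramble arrays 1 and 2 it had 0.06 and -0.06, a scramble difference of 0.11. The call was lost when any 1 of the 4 arrays was left out (adjusted p = 0.219 to 0.276), as was every other call among all 22206 features, while the difference of Cxcl15 kept its sign.

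At least 2-fold lower on 8 kPa were 5 features, against 0.815% of all features, and 0 were 2-fold higher, against 0.315%. Beside Cxcl15 these were Ccl3, Cxcl14, Cxcl2 and Cxcl5, of which none passed the test. Ccl3 (macrophage inflammatory protein 1 alpha) had -2.24 and -2.17 on 8 kPa and 0.23 and -0.23 on 126 kPa, a difference of -2.21 (SE 0.20, adjusted p = 0.0646 from limma). Its groups lay far apart, and it was the only one of the 5 among the 10 genes that were higher in scramble array 1. Cxcl14, a ligand that epithelium and fibroblasts make, had -1.21 and -1.45 on 8 kPa against -0.14 and 0.14, a difference of -1.33 (SE 0.18, adjusted p = 0.116 from limma). Cxcl2 had -1.39 and -1.12 against -0.09 and 0.09, a difference of -1.25 (SE 0.17, adjusted p = 0.115 from limma). Cxcl5 had -1.20 and -1.08 against -0.20 and 0.20, a difference of -1.14 (SE 0.19, adjusted p = 0.169 from limma). In all 5 the 8 kPa arrays lay below both 126 kPa arrays.

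The neutrophil-attracting CXC ligands were the role with the lowest median. Of its 5 genes, Cxcl15, Cxcl2 and Cxcl5 were at least 2-fold lower on 8 kPa, and the others were Cxcl1 with -0.40 and -0.04 on 8 kPa and Cxcl3 with -0.20 and 0.43. The median difference over the role was -1.14, against -0.03 over all 52 features and 0.03 over all 22206. Among the genes taken by the symbol rule these 5 follow each other on chromosome 5, in the order Cxcl5, Cxcl3, Cxcl15, Cxcl1, Cxcl2. Their receptors, Cxcr1 and Cxcr2, had log2 values between 0.02 and 0.53 on 8 kPa. The neutrophil markers had a median difference of 0.04, with 0 of 9 past the test.

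Among the 16 inflammatory CC ligands, 0 passed the test and the median difference was -0.29. Ccl9 had -0.89 and -1.03 on 8 kPa and -0.10 and 0.10 on 126 kPa, and Ccl17, an attractant of T cells through Ccr4, had -0.77 and -0.79 against 0.01 and -0.01. Ccl2, Ccl7 and Ccl20 lay in the other direction, with differences of 0.36, 0.35 and 0.45. Ccl12 had -0.29 and -1.59 on 8 kPa against -0.39 and 0.39, and Ccl4 had -0.28 and -1.05 against 0.38 and -0.38, so in both the groups overlapped. The 8 lymphoid and epithelial ligands (Ccl19, the Ccl21 genes, Ccl25, Ccl27a and Ccl28) ranged from -0.08 to 0.47 in their differences.

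The 9 CC receptors had a median difference of 0.15 and a range of -0.55 to 0.55, and the 6 CXC receptors a median of 0.09 and a range of -0.55 to 0.36. Ccr2 had 0.22 and 0.001 on 8 kPa and 0.40 and -0.40 on 126 kPa, and Ccr1 had 0.42 and -0.05 against 0.47 and -0.47, so in both the 8 kPa arrays lay within the spread of the 126 kPa arrays. Cxcr4 had -0.51 and -0.60 on 8 kPa against 0.14 and -0.14, a difference of -0.55 (SE 0.16, adjusted p = 0.361 from limma). Its ligand Cxcl12 differed by -0.13 (SE 0.14, adjusted p = 0.785 from limma).

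Set against the scramble difference, the 10 genes higher in scramble array 1 had a median of -0.61 between the gels, the 39 within 2-fold a median of 0.06 and the 3 in the other direction a median of -0.31. The macrophage markers had a median of -1.40 on 8 kPa, with 18 of 19 lower and 16 at least 2-fold lower. Of these markers, 4 passed the test (Itgam, C1qc, Mrc1 and Mpeg1). Ccr1 and Ccr2, which differed most between the scramble arrays, had 0.19 and 0.11 between the gels. The markers that were not 2-fold lower were Aif1, Fcgr1 and Cd163, with -0.22, -0.34 and 0.24. What part the marked cells have in these chemokine differences was not tested. Over the 52 features, 4 lay higher and 17 lower on 8 kPa without overlap of the arrays, against 24.3% and 17.8% of all features. Unadjusted p-values under 0.05 were found for 0 features above and 11 below, against 5.95% and 4.69% of all features.

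**Figure D2:**
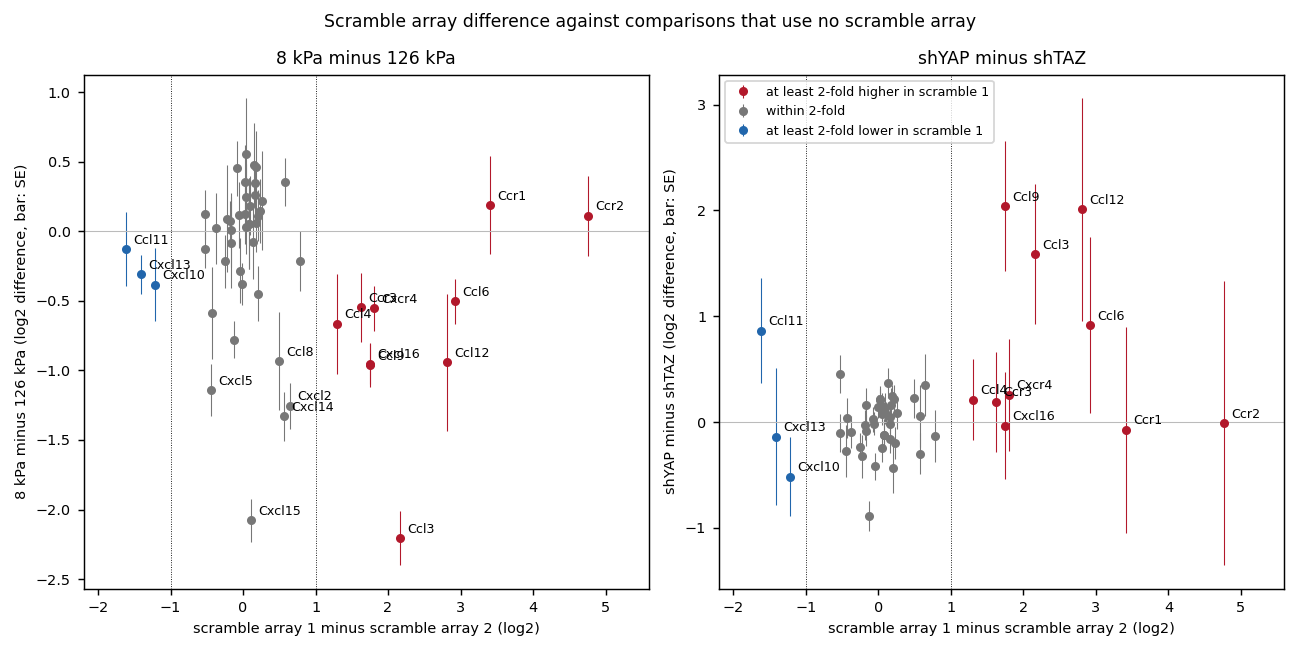
Each point is a chemokine or receptor feature, with the log2 difference between the scramble arrays on the horizontal axis and, on the vertical axis, the log2 difference between 8 kPa and 126 kPa (left) or shYAP and shTAZ (right), with bars for the SE from limma and dotted lines at 2-fold. Cxcl15, Cxcl2, Cxcl14 and Cxcl5 are low on 8 kPa and within 2-fold between the scramble arrays. Ccr1 and Ccr2 have the largest scramble differences and lie near 0 on both vertical axes.

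Knockdown of YAP on 126 kPa gave 0 of 52 features past the test in either direction, against 0.321% of all features higher and 0.212% lower. With an unadjusted p under 0.05 there were 6 above and 12 below, against 11.4% and 7.39% of all features. Arrays did not overlap for 14 above and 16 below, against 31.0% and 19.6%. At least 2-fold lower than the scramble mean were 10 features (1.93% of all features), and 1 was at least 2-fold higher (0.529% of all features). Of the 10, 9 belonged to the genes higher in scramble array 1, and the other was Cxcl10. The split used the scramble arrays, so the count of 9 is a description and no evidence about YAP.

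For the 10 genes that differed between the scramble arrays, the SE was 0.39 to 1.34 with a median of 0.64, against a median of 0.14 for the 39 features within 2-fold and 0.13 for all features. This larger SE follows from the split, as the same scramble difference enters the variance of the fit. Ccl6, an inflammatory CC ligand of macrophages, had -3.24 and -3.56 in the shYAP arrays and 1.46 and -1.46 in scramble arrays 1 and 2, a difference of -3.40 (SE 0.83, adjusted p = 0.131 from limma). Ccl9 had -2.50 and -3.41 against 0.87 and -0.87, a difference of -2.96 (SE 0.61, adjusted p = 0.104 from limma). In both the shYAP arrays lay below either scramble array. Ccl3 had -2.55 and -3.32 against 1.08 and -1.08, a difference of -2.94 (SE 0.66, adjusted p = 0.119 from limma).

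The receptors, like the ligands among the 10 genes higher in scramble array 1, lay closer to scramble array 2. This follows from the split, as any value below the scramble mean is nearer to the lower scramble array. Ccr2 had -2.83 and -2.68 with shYAP against 2.38 and -2.38, and Ccr1 had -2.68 and -3.23 against 1.71 and -1.71. Cxcr4 had -1.05 and -1.34 against 0.90 and -0.90. Measured from scramble array 2 alone, the shYAP mean was lower by a log2 difference of -0.38 for Ccr2, -1.25 for Ccr1 and -0.29 for Cxcr4, and measured from scramble array 1 alone by -5.14, -4.66 and -2.10. For the ligands Cxcl16 and Ccl4 the differences from scramble array 2 alone were -0.86 and -0.45. Of the 10 features 2-fold lower than the scramble mean, 5 were 2-fold lower than scramble array 2 (Ccl9, Ccl6, Ccl3, Cxcl10 and Ccr1) and 4 were 2-fold lower than each scramble array. Ccl12 overlapped, with -1.12 and -3.57 in the shYAP arrays and -1.41 in scramble array 2.

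The number of genes called turned on the scramble arrays. Without scramble array 2, 12 features passed the test as lower and 2 as higher with shYAP, against 5.0% and 3.76% of all features, and without scramble array 1, 2 passed as lower (Ccl6 and Cxcl10) and 0 as higher, against 0.262% and 0.158% of all features. Each of these fits leaves 1 scramble array, whose spread is taken to be that of the other groups. They also drop the scramble difference that the split used, so passing in them is a description. Ccl6 lay -1.94 from scramble array 2 and -4.86 from scramble array 1, and it did not pass with both arrays in the fit. The macrophage markers had medians of -2.13 and -3.63 in the shYAP arrays against 1.15 and -1.15 in scramble arrays 1 and 2, with 18 of 19 at least 2-fold below the scramble mean and 0 past the test.

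Several ligands that stayed within 2-fold between the scramble arrays had both shYAP arrays outside the scramble range. Those with the largest differences were Ccl2, Ccl7, Ccl8 and Ccl17, which lay below it, and Cxcl12, which lay above. Over all 52 features 14 lay above and 16 below, against 31.0% and 19.6% of all features. Ccl2, the main monocyte attractant, had -0.96 and -1.02 with shYAP against 0.29 and -0.29, a difference of -0.99 (SE 0.20, adjusted p = 0.0954 from limma). Ccl7, the next of these genes on chromosome 11 and another ligand of Ccr2, had -0.59 and -0.92 against 0.08 and -0.08, a difference of -0.76 (SE 0.14, adjusted p = 0.0888 from limma). Ccl8 differed by -0.72 and Ccl17 by -0.69. Cxcl12, which stromal cells make and which holds Cxcr4-bearing cells in their niches, had 0.72 and 0.70 with shYAP against -0.26 and 0.26, a difference of 0.71 (SE 0.18, adjusted p = 0.135 from limma). All of these lay outside the range of the scramble arrays, and none passed the test.

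Cxcl13, the attractant of B cells through Cxcr5, was the only feature at least 2-fold higher with either shRNA. It had 1.64 and 2.74 with shYAP and 1.63 and 3.03 with shTAZ, against -0.70 and 0.70 in scramble arrays 1 and 2. The difference was 2.19 (SE 0.64, adjusted p = 0.166 from limma) for shYAP and 2.33 (SE 0.64, adjusted p = 0.208 from limma) for shTAZ. It stood higher than the higher scramble array in all 4 shRNA arrays, and the replicates of each shRNA differed by over 2-fold. With the replicate number as a block its adjusted p for shYAP was 0.0327. In the stiffness set Cxcl13 had -0.28 and -0.34 on 8 kPa and -0.06 and 0.06 on 126 kPa. Its receptor Cxcr5 had 0.12 to 0.30 in the shRNA arrays.

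Cxcl10, an interferon-induced ligand of Cxcr3, had -0.91 and -1.26 with shYAP against -0.61 and 0.61 in scramble arrays 1 and 2, a difference of -1.08 (SE 0.37, adjusted p = 0.209 from limma). With shTAZ it had -0.66 and -0.47, inside the range of the scramble arrays. Of the other Cxcr3 ligands, Cxcl11 also lay lower with shYAP, at -0.19 and -0.09 (difference -0.14). Cxcl9 lay higher, at 0.16 and 0.53 (difference 0.34). All 17 interferon-responsive genes were lower with shYAP than the scramble mean, with a median of -1.03. With shTAZ 15 of 17 were lower, with a median of -0.705. Over all 22122 features, 9171 were lower with shYAP and 9065 with shTAZ. With shYAP 1 of the 17 passed the test, Irf7, which fell by 1.63 (SE 0.14, adjusted p = 0.0223 from limma). Irf7 did not pass in the fit to the 4 shYAP and scramble arrays alone, where 0 of all features passed as lower.

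**Figure D3:**
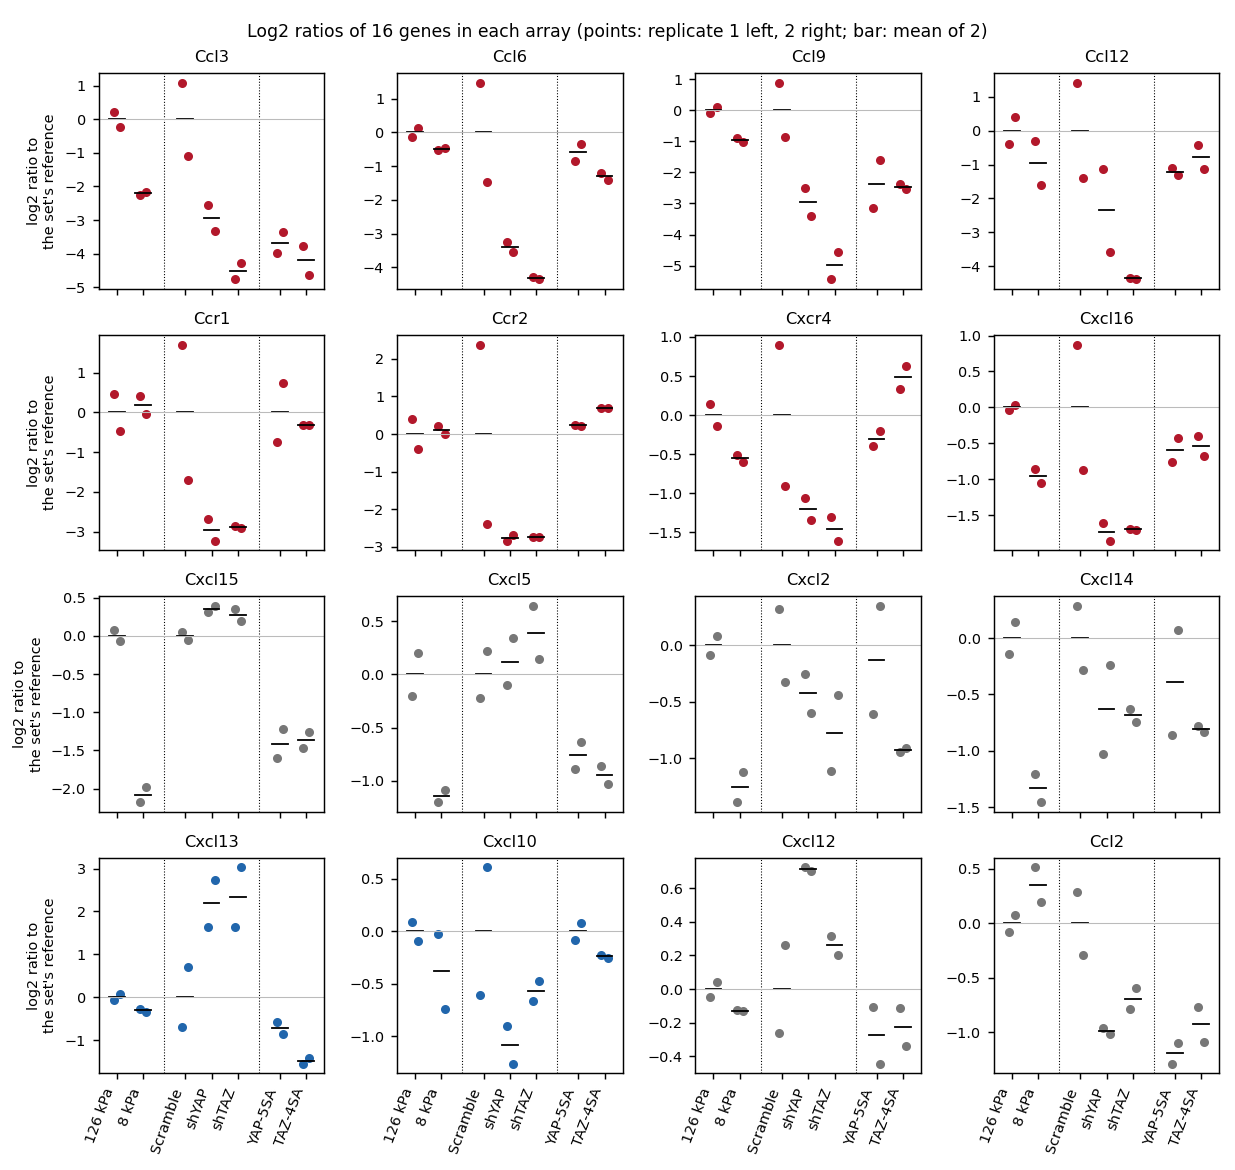
Log2 ratio of 16 genes in each array, with 1 point per array, a bar for the mean of 2 arrays and dotted lines between the 3 sets, which have different references and cannot be compared across the lines. Red marks genes with a 2-fold or greater excess in scramble array 1, blue those with a 2-fold or greater deficit there and grey the others. Ccr2 in scramble array 2 sits near the shRNA arrays, while Ccl3, Ccl6 and Ccl9 in the shTAZ arrays lie well below both scramble arrays.

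Knockdown of TAZ gave 0 of 52 features past the test, as it did over all 22122 features (0.0 in each direction). With an unadjusted p under 0.05 there were 4 above and 12 below, against 8.68% and 5.71% of all features. Arrays did not overlap for 11 above and 19 below, against 28.6% and 17.9%. At least 2-fold lower than the scramble mean were 9 features, against 1.95% of all features, and all 9 were higher in scramble array 1. Cxcl13 alone was 2-fold higher, against 0.258%. The shYAP and shTAZ comparisons share both scramble arrays, so likeness between them was not counted as a result.

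The lowest values of all were in the ligands. Ccl9 had -5.43 and -4.55 in the shTAZ arrays against 0.87 and -0.87, a difference of -5.00 (SE 0.61, adjusted p = 0.0778 from limma). Ccl3 had -4.76 and -4.29, a difference of -4.52 (SE 0.66, adjusted p = 0.106 from limma). Ccl12, a mouse ligand of Ccr2, had -4.33 and -4.38, a difference of -4.36 (SE 1.05, adjusted p = 0.169 from limma), and Ccl6 had -4.28 and -4.35, a difference of -4.31 (SE 0.83, adjusted p = 0.133 from limma). Measured from scramble array 2 alone, these 4 ligands stayed lower by log2 differences of -4.12 for Ccl9, -3.44 for Ccl3, -2.95 for Ccl12 and -2.85 for Ccl6. The gap between these ligands and both scramble arrays thus held whichever scramble array was taken.

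The size of the difference depended on the scramble array taken, for receptors and ligands of the 10 genes alike, as the split used those arrays. Ccr2 had -2.74 in both shTAZ arrays, which is -0.36 from scramble array 2 and -5.13 from scramble array 1. Ccr1 had -2.85 and -2.91, which is -1.18 and -4.59. Cxcl16, a membrane-bound ligand of Cxcr6, had -1.69 and -1.71 against 0.88 and -0.88, and Cxcr4 had -1.31 and -1.60 against 0.90 and -0.90. Without scramble array 2, 12 features passed as lower and 1 as higher, against 4.46% and 2.92% of all features. Without scramble array 1, 3 passed as lower (Ccl9, Ccl3 and Ccl6), against 0.588% of all features, and 0 as higher. Each of these fits leaves 1 scramble array and drops the scramble difference that the split used. Passing in them is therefore a description. In the shTAZ arrays the macrophage markers had medians of -4.89 and -4.67, with 18 of 19 at least 2-fold below the scramble mean and 0 past the test, and their part in the chemokine values was not tested. Ccl8 had -1.04 and -0.86 with shTAZ (difference -0.95, SE 0.19, adjusted p = 0.135 from limma) and Ccl2 had -0.79 and -0.60 (difference -0.69, SE 0.20, adjusted p = 0.217 from limma).

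**Figure D4:**
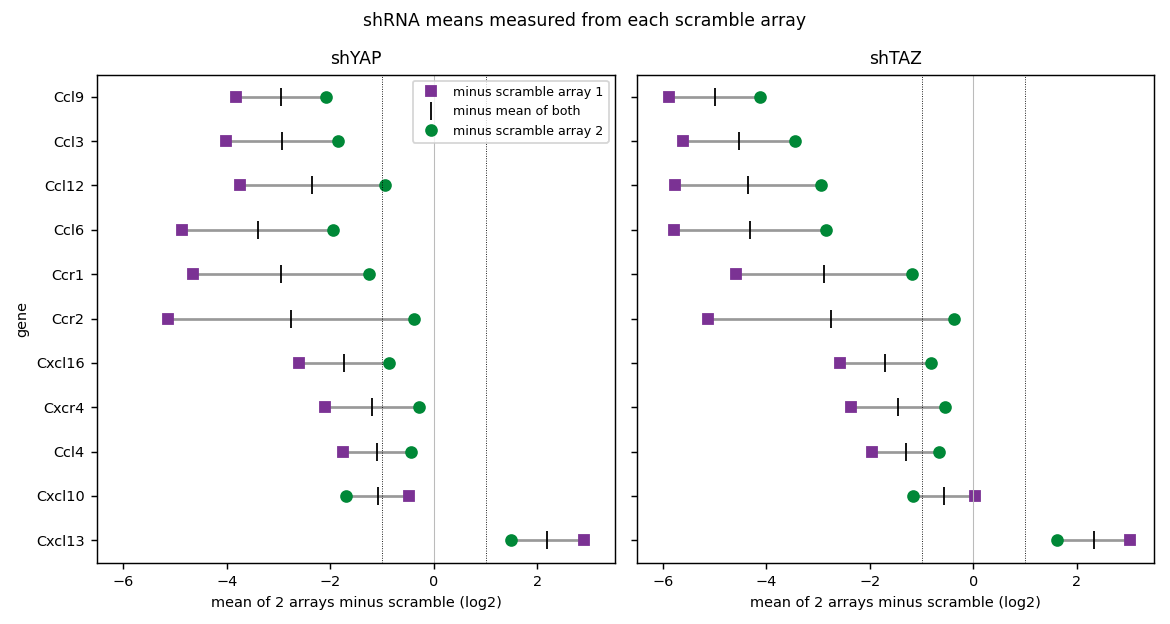
Mean of the 2 shYAP arrays (left) or the 2 shTAZ arrays (right) minus scramble array 1 (squares), minus scramble array 2 (circles) and minus their mean (ticks), in log2, for the 11 features that are at least 2-fold from the scramble mean with either shRNA, with dotted lines at 2-fold. With shTAZ, Ccl9, Ccl3, Ccl12 and Ccl6 stay far left of the line from either array, while the circles of Ccr2, Cxcl16, Cxcr4 and Ccl4 lie inside it.

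The shRNA groups can be set against each other with no scramble array in the difference. None of the 52 features passed, against 0.0316% of all features higher and 0.0136% lower with shYAP than with shTAZ. Unadjusted p-values under 0.05 were found for 3 above and 2 below, against 3.93% and 4.17%, and arrays did not overlap for 14 above and 8 below, against 23.6% and 20.6%. At least 2-fold higher with shYAP were 3 features, all CC ligands, against 0.42% of all features, and 0 were 2-fold lower, against 0.122%. Ccl9 differed by 2.04 (SE 0.61, adjusted p = 0.513 from limma), Ccl12 by 2.01 (SE 1.05, adjusted p = 0.705 from limma) and Ccl3 by 1.59 (SE 0.66, adjusted p = 0.621 from limma). In each of them the shYAP arrays lay above both shTAZ arrays. The SE in this fit still takes in the spread of the scramble arrays, which share the variance estimate.

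The 9 CC receptors had a median difference of -0.01 and a range of -0.43 to 0.24, and the 6 CXC receptors a median of 0.18 and a range of -0.10 to 0.26. Ccr2 differed by -0.01 (SE 1.34) and Ccr1 by -0.07 (SE 0.97). Ccr8 had a difference of -0.42 (SE 0.13, adjusted p = 0.515 from limma) and arrays that did not overlap. Among ligands Cxcl16 differed by -0.03 (SE 0.51), while Ccl6 differed by 0.92 (SE 0.83). Over the 10 genes the median was 0.23, whereas the 19 macrophage markers had a median of 1.71 and all 19 were higher with shYAP. Among markers, Lyz2 differed by 4.19, Mrc1 by 3.68 and Fcgr1 by 0.10, and none of them passed the test. Ccl12 also differed between the shYAP arrays, with -1.12 and -3.57. The median of shYAP array 1 minus array 2 was 0.304 over the 10 genes and 1.385 over the macrophage markers. In the other direction, Ccl17 had -0.52 and -0.85 with shYAP and 0.14 and 0.27 with shTAZ, a difference of -0.89 (SE 0.14, adjusted p = 0.208 from limma). Cxcl12 was above by 0.45 (SE 0.18, adjusted p = 0.609 from limma).

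Between the active mutants on 8 kPa, 0 of 52 features passed the test, against 0.402% of all features higher and 0.493% lower with YAP-5SA than with TAZ-4SA. Unadjusted p-values under 0.05 were found for 4 above and 6 below, against 6.55% and 7.0%, and arrays did not overlap for 11 above and 12 below, against 21.8% and 23.9%. None differed 2-fold, against 0.71% and 0.701% of all features. The widest differences were in Cxcl2, with -0.60 and 0.35 in the YAP-5SA arrays and -0.95 and -0.91 in the TAZ-4SA arrays (difference 0.80, SE 0.29, adjusted p = 0.311 from limma), in Cxcr4, with -0.39 and -0.21 against 0.33 and 0.63 (difference -0.78, SE 0.17, adjusted p = 0.109 from limma), and in Cxcl13, with -0.57 and -0.86 against -1.55 and -1.41 (difference 0.77, SE 0.16, adjusted p = 0.106 from limma). In Cxcr4 and Cxcl13 the groups were parted by more than the replicates within them. Ccl6 differed by 0.72 and Ccr2 by -0.46.

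The YAP-5SA arrays differed from each other as well. Ccl9 had -3.15 in array 1 and -1.60 in array 2, and Ccr1 had -0.74 and 0.73. Without YAP-5SA array 1, 7 features passed as higher with YAP-5SA (Ccr1, Cxcl2, Cxcr6, Ccl6, Ccl9, Ccl19 and Cxcl14), against 2.1% of all features, and without array 2, Cxcl13 passed as higher and Ccl11 as lower, against 0.732% and 0.913%. The macrophage markers had a median of -2.75 in YAP-5SA array 1 and of -0.98 in array 2.

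Relative to the reference of the mutant set, which is not stated, some ligands were low in all 4 arrays, and these values are a description. Ccl3 had -3.99 and -3.37 with YAP-5SA and -3.77 and -4.64 with TAZ-4SA. Cxcl11, an interferon-induced ligand of Cxcr3 chosen here after its values were seen, had -3.02, -2.42, -2.74 and -2.85. In the 10 arrays of the other sets it had -0.45 to 0.39, but those sets have their own references and cannot be compared with this one. Cxcl15 had -1.60, -1.22, -1.47 and -1.26. In total 6 features with YAP-5SA and 8 with TAZ-4SA lay at least 2-fold below the reference, against 1.97% and 1.94% of all features, and 1 (Ccl19) and 0 lay 2-fold above, against 1.38% and 1.06%. Ccr2, at 0.25, 0.22, 0.68 and 0.70, was not among the low genes in this set.

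Gene order in the RefSeq annotation placed many of the ligand genes in clusters, given here by their order among the 51 genes. On chromosome 11, Ccl5, Ccl9, Ccl6, Ccl3 and Ccl4 follow each other, and all of them but Ccl5 differed 2-fold between the scramble arrays. Ccl5 had 0.09 and -0.09 there, -0.23 and 0.15 with shYAP and -0.13 and -0.28 with shTAZ, beside differences of -5.00 for Ccl9, -4.31 for Ccl6, -4.52 for Ccl3 and -1.31 for Ccl4 with shTAZ. Along the other cluster of that chromosome (Ccl2, Ccl7, Ccl11, Ccl12, Ccl8 and Ccl1) only Ccl12 belonged to the 10 genes, and Ccl11 differed the other way. On chromosome 9, Ccr1, Ccr3 and Ccr2 follow each other and all belonged to the 10, while Ccr9 and Cxcr6, on the same side of them, had scramble differences of 0.18 and -0.17.

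Promoter sequences are shown for the 5 genes that stand for the patterns above, as the 250 bases before the RefSeq start (build GRCm38.p6), in the direction of the gene. Capitals mark matches to motifs searched on both strands: the binding motif of TEAD factors, the partners of YAP and TAZ (GGAATG), the AP-1 motif (TGANTCA), the PU.1 motif of the macrophage lineage (GAGGAAGT), the interferon-stimulated response element and the NF-kB motif. Cxcl15 (chr5:90794284-90794533, + strand) fell on 8 kPa, and Cxcl2 (chr5:90903649-90903898, + strand), from the same cluster, was 2-fold lower there. Ccl9 (chr11:83578637-83578886, - strand) had the lowest values with shTAZ. Cxcl13 (chr5:95956689-95956938, + strand) was the only gene 2-fold higher with the shRNAs, and Cxcl10 (chr5:92348890-92349139, - strand) the only gene 2-fold lower with shYAP that was not higher in scramble array 1.
Cxcl15: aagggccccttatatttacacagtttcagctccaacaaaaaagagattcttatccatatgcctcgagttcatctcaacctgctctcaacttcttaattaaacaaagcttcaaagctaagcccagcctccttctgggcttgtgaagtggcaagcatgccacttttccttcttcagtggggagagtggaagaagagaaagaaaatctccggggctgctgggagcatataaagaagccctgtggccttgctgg
Cxcl2: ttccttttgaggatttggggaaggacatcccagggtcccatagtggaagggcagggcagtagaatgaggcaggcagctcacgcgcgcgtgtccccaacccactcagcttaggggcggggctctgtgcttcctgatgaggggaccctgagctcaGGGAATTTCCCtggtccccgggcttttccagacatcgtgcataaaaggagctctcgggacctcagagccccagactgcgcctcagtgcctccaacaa
Ccl9: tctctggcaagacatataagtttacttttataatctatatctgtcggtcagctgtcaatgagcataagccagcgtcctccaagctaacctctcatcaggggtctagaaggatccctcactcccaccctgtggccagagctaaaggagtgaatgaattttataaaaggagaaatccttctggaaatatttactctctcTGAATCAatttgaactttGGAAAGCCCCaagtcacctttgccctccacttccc
Cxcl13: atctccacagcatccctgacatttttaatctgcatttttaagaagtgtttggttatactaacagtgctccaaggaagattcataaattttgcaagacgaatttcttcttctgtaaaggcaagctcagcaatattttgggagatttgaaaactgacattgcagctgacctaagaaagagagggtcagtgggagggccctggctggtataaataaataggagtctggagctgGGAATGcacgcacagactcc
Cxcl10: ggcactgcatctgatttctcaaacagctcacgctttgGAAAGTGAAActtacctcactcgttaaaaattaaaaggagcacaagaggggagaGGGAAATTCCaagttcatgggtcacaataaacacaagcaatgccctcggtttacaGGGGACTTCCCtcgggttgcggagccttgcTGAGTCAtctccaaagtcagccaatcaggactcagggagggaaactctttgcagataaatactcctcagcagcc

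In these windows Cxcl15 held none of the motifs, and Cxcl2 held overlapping NF-kB matches that began at positions -97 and -96, counted from the start. Ccl9 held an AP-1 motif at -53 and an NF-kB motif at -35, and Cxcl13 a TEAD motif at -20. Cxcl10 held an interferon response motif, an AP-1 motif and NF-kB motifs. Of 40 windows for 36 of the 51 genes, 6 held the TEAD motif, against 12.6% of all 32817 windows, 5 the AP-1 motif (6.75%), 1 the PU.1 motif (2.44%), 3 the interferon response motif (2.97%) and 10 the NF-kB motif (7.25%). Of the 8 windows of genes higher in scramble array 1, 0 held TEAD, 2 AP-1, 0 PU.1, 0 interferon response and 3 NF-kB motifs. A match of letters shows neither binding nor its absence.

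Other genes of the chemokine system, outside the symbol rule, gave 0 of 15 past the test in each comparison. Cx3cr1, the fractalkine receptor of monocytes and macrophages, had a log2 difference of 2.38 between the scramble arrays and of -0.86 on 8 kPa (SE 0.21, adjusted p = 0.304 from limma). Against the scramble mean its difference was -2.51 for shYAP (SE 0.73, limma adjusted p = 0.164) and -3.44 for shTAZ (SE 0.73, limma adjusted p = 0.147). Ccrl2 differed by 1.22 between the scramble arrays and by -1.38 with shYAP. Ackr3, the scavenging receptor of Cxcl12, differed by -0.82 between the scramble arrays, by 0.31 with shYAP and by 0.80 with shTAZ. Of 22 genes of receptor signalling, 3 passed as higher with shYAP (Gnai1, Grk3 and Rgs4, by 0.78, 1.07 and 1.16) and 0 as lower, against 0.321% and 0.212% of all features. In the fit to the 4 shYAP and scramble arrays alone, 2 of all 22122 features passed as higher, so not all 3 genes passed there. The list also held 6 genes at least 2-fold lower with shYAP that did not pass, the lowest of them Rgs1 at -3.46 (SE 0.66, adjusted p = 0.0908 from limma) and Dock2 at -2.81 (SE 0.57, limma adjusted p = 0.097). Of the 22, 16 lay below the scramble mean, with a median of -0.12, and between the scramble arrays 7 had a 2-fold or greater excess in array 1. Between the mutants Gng2 passed as higher and Rgs2 as lower with YAP-5SA, and 0 passed in the other comparisons. Of 22 genes of NF-kB and inflammation, 2 passed as lower with shYAP and 21 lay below the scramble mean. The 2 were Ptgs2, which encodes the cyclooxygenase of inflammation, with a difference of -2.17 (SE 0.25, adjusted p = 0.0361 from limma) and Lif with -0.82 (SE 0.11, adjusted p = 0.0443 from limma). Neither passed in the fit to the 4 shYAP and scramble arrays alone, where 0 of 22122 features passed as lower. Ptgs2 rose with YAP-5SA against TAZ-4SA by 2.50 (SE 0.14, adjusted p = 0.00659 from limma).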

How the data were processed

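RNA of 14 cultures was hybridised to Clariom S Mouse arrays, and the software used by the authors was Affymetrix Expression Console, version 1.4. Values were deposited by the authors as log2 ratios in 3 sets of arrays, and the summarisation method and genome build are not given in the sources used here. Features got gene symbols from the platform annotation (19572 of 22206 have 1 symbol), and promoter windows and gene order came from RefSeq. Within each set, limma 3.58.1 (R 4.3.3) was fitted to every feature with a value in all its arrays (22206 for stiffness, 22122 for the shRNAs, 22127 for the mutants), with Benjamini-Hochberg adjustment over all of them, two-sided, at an adjusted p under 0.05. The steps were tested on simulated data. Each group has 2 arrays, which limits the precision. The mutant groups were not tested against GHMT/8 kPa, nor scramble against GHMT/126 kPa, as the sets were made separately. At least 2-fold means a difference of 1 or more in log2 between group means. Genes named with values were those past the test, those with a 2-fold difference in any of the 5 comparisons, those next to the limits of the scramble split, and Cxcl12, Cxcr4, Ccl2 and Ccr2, with other genes given as members of their role and chosen after their values were seen. The genes and lists were chosen with earlier results of these data known. Alternatives were centring on the array median, array weights, a block for the replicate number, a robust variance prior, a fit to 4 arrays or to all 14, other fold limits and each array left out in turn.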

Additional observations from a re-analysis of the deposited data

How the results depend on the processing

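With 2 arrays per group, calls depended on single arrays and on the fit. In the comparison of 8 kPa with 126 kPa, 1 feature (Cxcl15) passed as lower, 0 with the replicate number as a block (adjusted p = 0.173 from limma) and 2 in the fit to all 14 arrays, which adds Cxcl5. With shYAP, 0 passed in either direction, the replicate block gave 1 higher (Cxcl13, against 0.0994% of all features), and the 14-array fit gave 1 higher and 6 lower. With shTAZ the 14-array fit gave 1 higher and 4 lower instead of 0. Over all features that fit called 1.13% higher and 1.44% lower with shYAP instead of 0.321% and 0.212%, 0.52% and 1.25% with shTAZ instead of 0.0, and 0.759% and 0.787% on 8 kPa instead of 0.0 and 0.0721%. It takes the spread of each gene from all groups, across sets with different references. The block changed no other count past the test. The correlation of replicate 1 minus replicate 2 between groups was -0.023 to 0.2, highest for scramble with shYAP, where all 19 macrophage markers were higher in replicate 1 of both groups. Cxcl13 was lower in replicate 1 of scramble, shYAP and shTAZ, by -1.41, -1.10 and -1.40. The labels tie the numbers to no shared source, and the arrays were not treated as pairs. At a 1.5-fold limit, 12 features were lower on 8 kPa instead of 5, 2 higher and 16 lower with shYAP instead of 1 and 10, 16 lower with shTAZ instead of 9, 5 higher and 1 lower with shYAP against shTAZ instead of 3 and 0, and 3 higher and 3 lower between the mutants instead of 0. At 3-fold, 2 were lower on 8 kPa, and 1 instead of 3 differed against scramble array 1.

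When each array was left out in turn, counts past the test were 0 to 0 on 8 kPa, 0 to 2 higher and 0 to 12 lower with shYAP, 0 to 1 higher and 0 to 12 lower with shTAZ, and 0 to 7 higher and 0 to 1 lower between the mutants. The shares of all features were 0.0 on 8 kPa, 0.0 to 3.76% higher and 0.0 to 5.0% lower with shYAP, 0.0 to 2.92% and 0.0 to 4.46% with shTAZ, and 0.339 to 2.1% and 0.307 to 1.88% between the mutants. Counts of 2-fold lower features were 6 to 9 on 8 kPa (8 without 126 kPa replicate 1, 9 without 8 kPa replicate 1), 5 (without scramble replicate 1) to 11 with shYAP and 7 to 12 with shTAZ, and of 2-fold higher ones 0 to 1 on 8 kPa. For shYAP against shTAZ they were 2 to 5 higher (5 without shYAP replicate 2) and 0 to 1 lower (1 without shYAP replicate 1), and for the mutants 0 to 2 higher (2 without YAP-5SA replicate 1). Differences that changed sign were those of Ccr2 on 8 kPa (-0.287 without 126 kPa replicate 2, up to 0.508), Ccr2 between shYAP and shTAZ (0.062 without shYAP replicate 1, down to -0.086), Cxcl12 with shTAZ (-0.003 without scramble replicate 1, up to 0.522) and Cxcl12 between the mutants (0.121 without YAP-5SA replicate 2 and 0.065 without TAZ-4SA replicate 1, down to -0.219). Of the recomputed differences of named genes, 451 kept direction and side of the threshold, 40 came to pass, 5 no longer passed, all of them Cxcl15 on 8 kPa, and 5 changed sign. The cause of these changes was not tested.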
